A study of Mus musculus with 13 samples.

Results

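Netrin and Slit receptors are 8 genes here, Dcc, Unc5a, Unc5b, Unc5c, Unc5d, Robo1, Robo2 and Robo4, of 37785 genes counted. They were taken by name, and all 8 passed the filter on low counts. Total RNA was sequenced from brain cells of wild-type C57BL/6 mice, enriched with magnetic beads against PDGFRα, a surface receptor of oligodendrocyte precursor cells (OPCs, the progenitors of myelin-forming oligodendrocytes). The 13 libraries fell into E16 (late embryo, 3), P12 (pups of 12 days, 3), P80 (adults of about 80 days, 3) and P310 (adults of about 310 days, 4). Adult ages are nominal, since the age labels of several P80 and P310 libraries differ from them by up to a few days. Myelin debris was removed with beads at P80 and P310 only, so that step and adult age cannot be told apart. The labels do not say whether a library is 1 mouse or a pool, so p-values measure the spread between these samples.

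Netrins and Slits are secreted cues that steer growing axons, migrating cells and vessel sprouts. Dcc mediates attraction to netrin 1, while the Unc5 receptors mediate repulsion, alone or together with Dcc. Robo1 and Robo2 bind Slits and repel axons from the midline, and Robo4 is a shorter relative known from endothelium that interacts with Unc5b. In the oligodendrocyte lineage, netrin 1 acting through Dcc and Unc5 receptors is known to guide the migration of precursors and later the growth of their processes. Dcc and the Unc5 family are also called dependence receptors, because they can trigger cell death when no ligand is bound.

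Totals ranged from 8669521 to 25810455 counts per library, and 3 counts, the limit that a count of 0 allows, stood for 0.116 to 0.346 CPM (counts scaled to library size). Such a limit takes in counting error alone, as duplicated PCR reads are no separate molecules. The P12 libraries labelled 2 and 3 lay close to counting noise from each other and entered as 1 summed sample, which left n = 3, 2, 3 and 4. The sorted fraction was mixed at every age. The summed CPM of 12 OPC markers was 495 to 570 at E16 and 554 to 640 at P12. It was 254 to 314 at P80 and 192 to 348 at P310. The list's defining markers Pdgfra, Cspg4, Olig2 and Sox10 were at 0 in no age. From E16 to P310, mean CPM by age was 33.0, 70.1, 37.1 and 30.7 for Pdgfra and 13.6, 59.6, 85.2 and 67.1 for Cspg4. For Olig2 it was 5.86, 14.2, 4.47 and 3.92, and for Sox10 3.43, 31.0, 5.63 and 17.6. Other markers of the list thus made up most of the E16 sum. Cspg4 also counts as a mural marker and Pdgfra as a fibroblast marker. Over the same ages 12 endothelial markers summed to 47.5 to 74.3, 4538 to 5779, 5511 to 6642 and 4319 to 8057 CPM. The sum of 12 immature neuron markers was 7822 to 8889, 391 to 410.1, 132 to 181 and 135 to 787 CPM. In bulk RNA, fewer cells of a type and less RNA per cell cannot be told apart. Oligodendrocyte markers summed to 8235 CPM in P12 replicate 1 and 67509 CPM in P310 replicate 2, against at most 918 in every other sample.

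The step from E16 to P12 divided the receptors. Unc5b and Robo4 rose, and Dcc, Unc5d, Robo1 and Robo2 fell, in edgeR's quasi-likelihood test with Benjamini-Hochberg adjustment. Unc5a and Unc5c did not pass it. Of all 21170 genes tested, 27.2% were called in this comparison, 16.7% higher and 10.5% lower, against 2 higher and 4 lower of the 8 receptors. The median log2 change of the receptors was -2.74, and that of all genes tested 0.09. The 8 were chosen with earlier results of these data known, so these counts and medians only describe them. Comparing P80 with E16 gave 2 higher and 4 lower again, where 40.7% of all genes were called, 21.5% higher and 19.2% lower. Both comparisons use the same E16 samples, so the second is no repeat of the first. The mitochondrial share of counts also moved with age, from 1.52% to 3.54% at E16 to 4.44% to 10.77% at P12, 12.84% to 23.5% at P80 and 18.27% to 34.44% at P310, and its part in these changes was not tested.

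**Figure D1:**
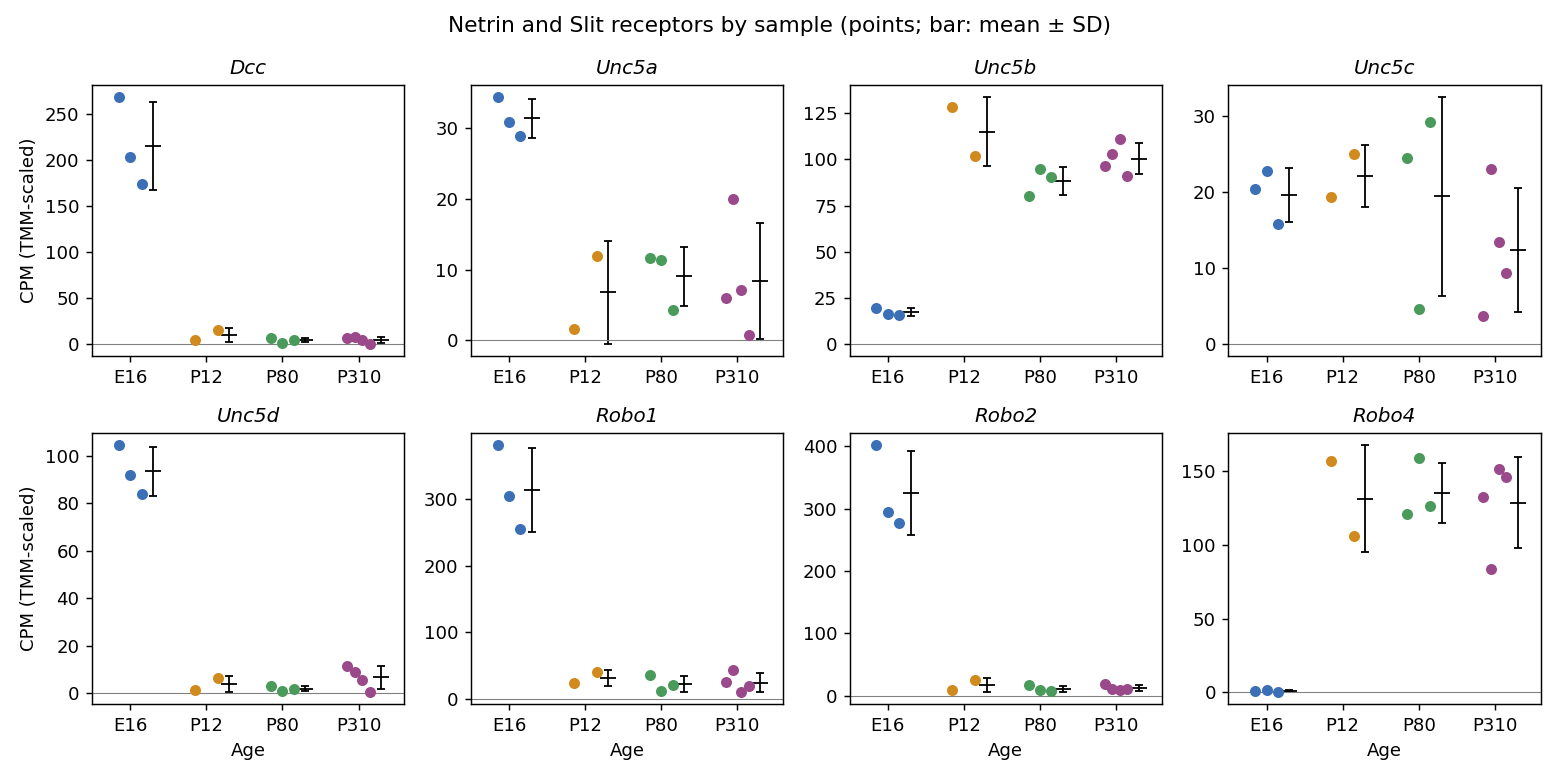
TMM-scaled CPM (y axis, linear) of each receptor in every sample (points) by age (x axis), with the mean and SD of each age as a bar beside the points. Unc5b and Robo4 are low at E16 and high at all later ages, Dcc, Unc5d, Robo1 and Robo2 show the opposite order, and Unc5c overlaps at all ages.

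Robo4 (ENSMUSG00000032125, chromosome 9, 37401897 to 37415115 on the plus strand of GRCm38), the endothelial Robo, had 17, 22 and 5 counts in the E16 libraries. That is 1.22, 1.33 and 0.295 CPM, against 157 and 106 CPM in the P12 samples. P80 samples held 121, 158 and 126 CPM, and P310 samples 132, 83.7, 151 and 146 CPM. Every sample after birth lay far above every E16 sample, and the 3 later ages overlapped. The log2 change from E16 to P12 was 7.11 ± 0.47 (SE, adjusted p = 6.37e-08), and from E16 to P80 it was 7.16 ± 0.46 (adjusted p = 3.11e-08).

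Unc5b (ENSMUSG00000020099, chromosome 10, 60762593 to 60831581, minus strand), a netrin receptor of endothelial tip cells and arteries, stood at 19.6, 16.3 and 15.4 CPM at E16. It reached 128 and 102 CPM at P12. Its values were 80.1, 95.1 and 90.3 CPM at P80 and 96.5, 103, 111 and 91.3 CPM at P310. No postnatal sample overlapped E16, and unlike Robo4 the gene was already well above the counting limit in the embryo, with 261 to 273 counts per library. The log2 change was 2.75 ± 0.21 at P12 against E16 (adjusted p = 2.45e-07) and 2.37 ± 0.20 at P80 against E16 (adjusted p = 3.63e-07).

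All 12 endothelial markers rose in both comparisons, with medians of 6.72 and 7.04 on the log2 scale. Pecam1, an adhesion molecule of endothelium, went from 4.98 ± 0.713 CPM (SD, n = 3) at E16 to 468 ± 29.1 (n = 2) at P12. Cdh5, the endothelial cadherin, went from 24.7 ± 7.49 to 557 ± 49.9 CPM and Cldn5, a tight junction protein, from 2.06 ± 0.636 to 634 ± 105. At P12 the log2 change of Robo4 (7.11) lay within the range of the 12 (4.20 to 9.97) and that of Unc5b (2.75) below it. None of the 3 defining markers was at 0 at E16. Markers of other cell types moved as well. From E16 to P12, 8 of 10 mural, 8 of 10 astrocyte and 8 of 10 microglia markers rose and none fell, with medians of 2.04, 2.82 and 3.15, values near the change of Unc5b. At P80 against E16 these were 8, 9 and 8 of 10, with medians of 2.22, 2.04 and 2.90. In that comparison the oligodendrocyte, fibroblast and OPC lists had medians of 1.78, 0.05 and 0.34. Of their markers 1 of 10, 0 of 8 and 3 of 12 rose, and 0, 1 and 2 fell. At P12 against E16 those lists lay further from Unc5b. There 6 of 10 oligodendrocyte markers (median 6.87), 3 of 8 fibroblast markers (1.25) and 3 of 12 OPC markers (1.45) rose. Of these lists only that of OPCs had a marker that fell at P12, 1 of 12. Of 12 mature neuron markers 3 fell and 0 rose (median -1.86). The part of RNA from any of these cells in the rise of Robo4 and Unc5b was not tested.

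Within the 9 postnatal samples the pair came apart. Pearson's r between Unc5b and Robo4 was 0.98 over all 12 samples and 0.19 over these 9. Over these samples Pearson's r with the log of the endothelial sum was 0.83 for Robo4 and -0.05 for Unc5b, a description of samples from 3 ages that share library scaling. Among the marker sums compared, r of Unc5b ran from -0.22 (mature neuron) to 0.57 (immature neuron). That of Robo4 ran from -0.62 (immature neuron) to 0.83 (endothelial). P310 replicate 2, which had the lowest endothelial sum (4319 CPM), and the oligodendrocyte sum of 67509 CPM, had the lowest Robo4 of the postnatal samples (83.7 CPM) and 103 CPM of Unc5b. By the correlation of log CPM over all 12 samples, the coding genes most like Robo4 among 13380 were Zfp366 (r = 0.998), Hspa12b (0.997) and Adgrl4 (0.997). Without E16 the values were 0.899, 0.925 and 0.878. For Unc5b they were Tacc1, Parvb and Myo1c (each 0.991), and without E16 0.772, 0.685 and 0.454. The E16 samples lie apart from all others, so r over 12 samples mostly reflects that gap.

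**Figure D2:**
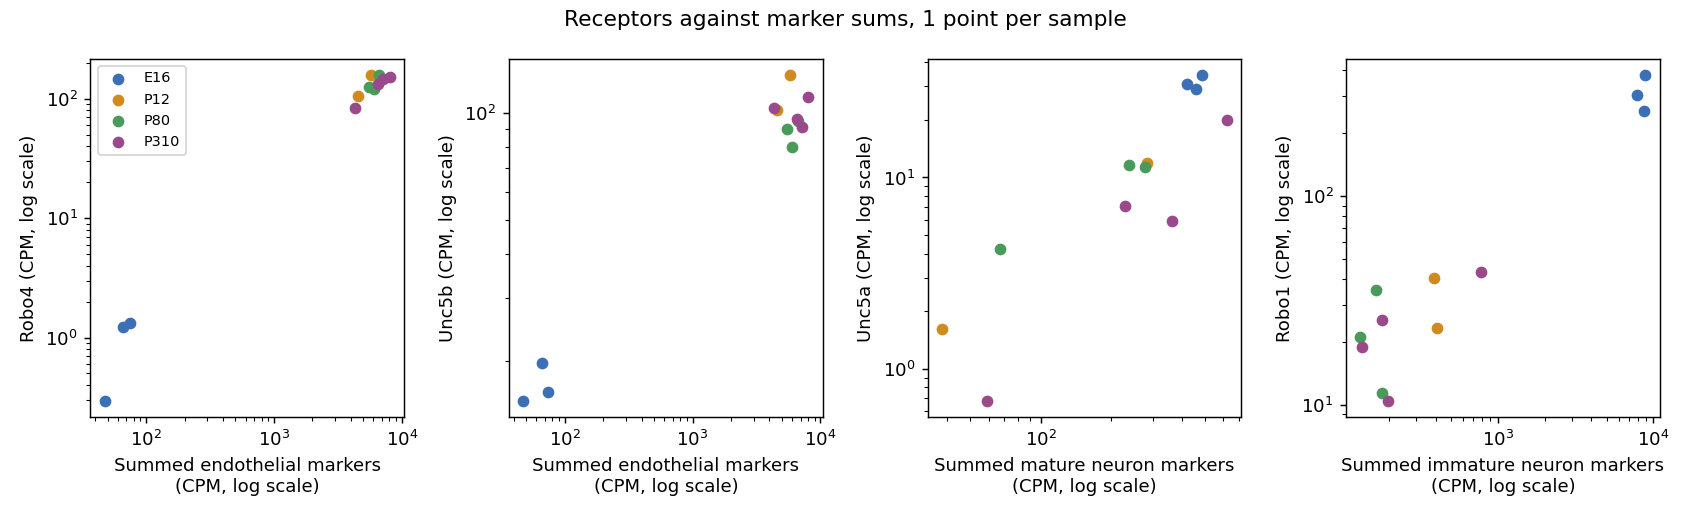
CPM of 4 receptors (y axis, log scale) against the summed CPM of a marker list (x axis, log scale), 1 point per sample, coloured by age. Robo4 and the endothelial sum move together between E16 and later ages, and Unc5a and mature neuron markers are both lowest in P12 replicate 1 and P310 replicate 4.

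The sequences upstream of receptor genes are shown because Unc5b and Robo4 moved in the same direction while their promoters have different base composition. RefSeq's table (GRCm38.p6) matched 6 of the 8 genes, Dcc and Unc5d not being among them. In the 250 bases before the annotated start, Unc5b held 27 CpG dinucleotides and 66.8% G and C, and Robo4 held 2 CpG and 49.6%. The median of all 32851 promoters in the table was 6 CpG and 52.4%. As many CpG as in Unc5b were found in 8.6% of promoters, and as few as in Robo4 in 29.0%. Unc5a and Unc5c, which did not pass the test, held 25 and 23, and Robo1, which fell, held 11. Robo2, which fell too, has 3 promoters in the table, with 14, 4 and 8. Each stretch below is written 5′ to 3′ on the gene's strand with CpG (letters CG) in capitals, and that of Robo4 ends where the deposited annotation starts the gene. They lie at chr10:60831582-60831831 (minus), chr9:37401722-37401896 (plus), chr13:54949161-54949410 (plus) and chr16:72662899-72663148 (plus), in the order printed.
Unc5b: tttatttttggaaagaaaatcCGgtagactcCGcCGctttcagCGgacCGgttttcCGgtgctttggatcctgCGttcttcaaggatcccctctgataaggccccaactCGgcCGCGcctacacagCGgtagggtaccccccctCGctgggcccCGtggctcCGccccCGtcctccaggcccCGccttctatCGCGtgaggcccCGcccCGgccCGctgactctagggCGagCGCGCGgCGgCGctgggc
Robo4: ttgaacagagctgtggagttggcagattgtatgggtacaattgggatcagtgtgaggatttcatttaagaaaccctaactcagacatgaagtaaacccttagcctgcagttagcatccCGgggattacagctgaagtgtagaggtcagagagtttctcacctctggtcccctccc
Unc5a: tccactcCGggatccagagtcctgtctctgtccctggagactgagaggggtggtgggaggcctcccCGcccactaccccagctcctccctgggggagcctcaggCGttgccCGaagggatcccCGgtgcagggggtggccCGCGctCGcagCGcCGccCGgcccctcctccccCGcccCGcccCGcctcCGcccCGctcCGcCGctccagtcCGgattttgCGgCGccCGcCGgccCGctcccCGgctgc
Robo1: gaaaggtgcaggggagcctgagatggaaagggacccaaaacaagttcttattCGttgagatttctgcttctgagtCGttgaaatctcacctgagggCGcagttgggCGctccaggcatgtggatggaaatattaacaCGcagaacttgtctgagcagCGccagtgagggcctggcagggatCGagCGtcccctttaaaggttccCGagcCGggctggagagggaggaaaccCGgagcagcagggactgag

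Dcc (ENSMUSG00000060534, chromosome 18, 71258738 to 72351069, minus strand), the attractive netrin receptor, stood at 269, 203 and 175 CPM at E16. P12 samples held 4.17 and 15.3 CPM. At P80 the values were 6.46, 1.48 and 4.17 CPM, and at P310 6.07, 7.26, 4.64 and 0 CPM, the last from a library with no count, which allows up to 0.251 CPM of its raw total. Every embryonic sample lay above every later one. The log2 change was -4.45 ± 1.24 from E16 to P12 (adjusted p = 0.0236) and -5.70 ± 1.11 from E16 to P80 (adjusted p = 0.00244). The P12 call ended without E16 replicate 1 (-4.27, adjusted p = 0.0544), P12 replicate 1 (-3.82, adjusted p = 0.144) or P12 replicate 2-3 (-5.69, adjusted p = 0.0636), and adjusted p ran from 3.5e-24 to 0.144 over 22 alternatives. The call at P80 against E16 held in all 22.

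Robo1 (ENSMUSG00000022883, chromosome 16, 72663149 to 73046095, plus strand) is a Slit receptor of commissural axons and migrating neurons. It had 381, 305 and 256 CPM at E16, 23.3 and 40.5 at P12, 35.3, 11.4 and 21.0 at P80, and 25.5, 43.1, 10.4 and 19.0 at P310. Robo1 stayed above 10 CPM in every library, so it was still detected after its fall. From E16 to P12 it fell by 3.30 on the log2 scale (SE 0.62, adjusted p = 0.00167), and from E16 to P80 by 3.79 (SE 0.53, adjusted p = 1.3e-04).

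Robo2 (ENSMUSG00000052516, chromosome 16, 73892306 to 74411825, minus strand), the partner of Robo1 in Slit repulsion, had 402, 296 and 278 CPM at E16 and 9.45 and 25.1 CPM at P12. Adult values were 16.5, 8.52 and 8.35 CPM at P80 and 18.9, 10.3, 8.83 and 11.2 CPM at P310. Embryonic samples again did not overlap the rest. The log2 change was -4.23 ± 0.51 from E16 to P12 (adjusted p = 2.52e-05; -5.10 without P12 replicate 2-3) and -4.86 ± 0.44 from E16 to P80 (adjusted p = 1.12e-06).

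Unc5d (ENSMUSG00000063626, chromosome 8, 28646717 to 29219636, minus strand), which binds netrin and Flrt2 and is known from migrating cortical neurons, had 104, 91.8 and 83.9 CPM at E16. It was at 1.62 and 6.30 CPM at P12 and at 3.10, 1.24 and 1.88 CPM at P80. At P310 it spread over 11.6, 9.13, 5.53 and 0.765 CPM, with 3 samples above all of P80 and 1 below. The log2 change was -4.52 ± 0.95 from E16 to P12 (adjusted p = 0.00377) and -5.45 ± 0.84 from E16 to P80 (adjusted p = 3.0e-04). Leaving out P12 replicate 2-3 gave -5.84, leaving out P12 replicate 1 gave -3.89, and both values passed the test.

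Of the 12 immature neuron markers 10 fell and none rose from E16 to P12, and all 12 fell from E16 to P80, with medians of -4.51 and -5.95. Dcx, a microtubule protein of migrating neurons, went from 916 ± 134 CPM at E16 (n = 3) to 23.0 ± 8.76 at P12 (n = 2), and Tubb3, a neuronal tubulin, from 783 ± 68.7 to 13.8 ± 4.33. Neurod6, a transcription factor of cortical projection neurons, went from 371 ± 35.6 to 1.13 ± 0.804 CPM. None of these defining markers was at 0 in any age. The changes of Dcc, Unc5d, Robo1 and Robo2 lay within the range of the called markers of that list, and the part of neuronal RNA in them was not tested.

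**Figure D3:**
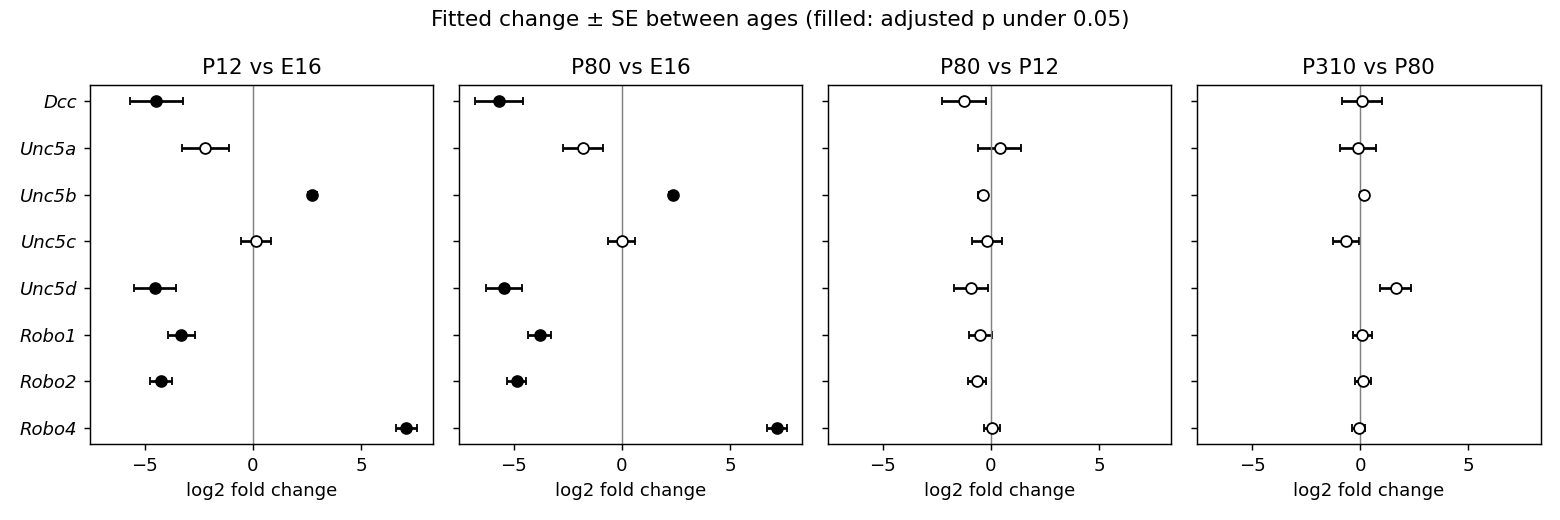
Fitted log2 fold change (x axis) with its standard error for each receptor (rows) in 4 comparisons of ages. Filled points passed an adjusted p of 0.05, which 6 receptors did at P12 and at P80 against E16, and none did in the 2 right panels.

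Unc5a (ENSMUSG00000025876, chromosome 13, 54949411 to 55006018, plus strand), a neuronal Unc5 receptor, had 34.4, 30.9 and 29.0 CPM at E16, above every later sample. The P12 samples differed, with 1.62 and 11.9 CPM. Values of 11.6, 11.4 and 4.24 CPM followed at P80 and 5.94, 20.01, 7.13 and 0.68 CPM at P310. Its log2 change was -2.19 ± 1.08 from E16 to P12 (adjusted p = 0.159) and -1.80 ± 0.92 from E16 to P80 (adjusted p = 0.141). Over 22 alternatives each, 4 and 5 called it lower. Leaving out P12 replicate 2-3 gave -4.27 at P12, and leaving out P12 replicate 1 gave -1.40. Over the 9 postnatal samples Pearson's r of Unc5a with the log of the summed mature neuron markers was 0.87, again a description over shared libraries. P12 replicate 1 held 37.9 CPM of these markers against 283 in P12 replicate 2-3, and P310 replicate 4 held 58.8 CPM against 622 in P310 replicate 2. P310 replicates 4 and 2 also held the lowest and the highest Unc5a of that age.

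Unc5c (ENSMUSG00000059921, chromosome 3, 141465216 to 141834924, plus strand), a repulsive netrin receptor of cerebellar and spinal neurons, had 20.4, 22.8 and 15.8 CPM at E16 and 19.3 and 25.0 CPM at P12. At P80 the samples read 24.5, 4.57 and 29.2 CPM, and at P310 3.70, 23.1, 13.5 and 9.35 CPM. All ages overlapped. The log2 change was 0.17 ± 0.69 from E16 to P12 (adjusted p = 0.882) and -0.01 ± 0.62 from E16 to P80 (adjusted p = 0.991), with errors too wide to call the ages alike. Of its exonic bases 0.617% are shared with an antisense gene, Gm15688, and of those of Unc5a 0.816% with Hk3, and counting did not use strand. The other 6 receptors share no exonic base with another annotated gene.

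Beyond P12 the receptors moved little against their spread. None of the 8 was called at P80 against P12, where 1.42% of all genes were (0.406% higher and 1.02% lower), and none had an unadjusted p under 0.05, which 9.75% of all genes had. None was called at P310 against P80, where 0% of all genes were called by edgeR, and 1 receptor, Unc5d, had an unadjusted p under 0.05 (0.0423, adjusted p = 0.871, log2 change 1.65 ± 0.72), beside 5.49% of all genes. DESeq2 and limma-voom called 0 of the 8 in both comparisons too. Of all 21170 genes, DESeq2 called 273 higher and 372 lower at P80 against P12, and limma-voom 163 and 327. At P310 against P80 these were 14 and 14 for DESeq2, and 0 and 0 for limma-voom. With so few of all genes called, 0 of 8 does not set the receptors apart. The widest change at P80 against P12 was that of Dcc, -1.25 ± 1.03 (adjusted p = 0.837), and the narrowest error was that of Unc5b, at -0.38 ± 0.21 (adjusted p = 0.636). Every P80 sample of Unc5b (80.1 to 95.1 CPM) lay below both P12 samples (102 and 128 CPM). How many of all genes did so was not counted. At P310 against P80 the changes of Unc5b and Robo4 were 0.18 ± 0.18 and -0.07 ± 0.32. Over all 4 ages together, 6 receptors were called, the same 6 as at P12 against E16, beside 37.1% of all genes.

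Levels of different receptors were compared per kb of exon. At E16 Robo1 led with 41.5 ± 8.34 CPM per kb (SD, n = 3), followed by Dcc (26.7 ± 5.97) and Robo2 (19.7 ± 4.06), whose samples overlapped each other. Then came Unc5d (10.1 ± 1.11), Unc5a (7.54 ± 0.663), Unc5b (2.74 ± 0.357), Unc5c (1.03 ± 0.186) and Robo4 (0.179 ± 0.107), none overlapping its neighbour. At P12 the order began with Robo4 (24.7 ± 6.82, n = 2) and Unc5b (18.4 ± 2.99), which overlapped, then Robo1 (4.22 ± 1.61), while the other 5 overlapped each neighbour in turn. At P80 Robo4 (25.5 ± 3.82) and Unc5b (14.1 ± 1.23) did not overlap each other, and from Robo1 (2.98 ± 1.60) down all neighbours did. At P310 Robo4 (24.2 ± 5.81, n = 4) and Unc5b (16.1 ± 1.37) led again, with Robo1 at 3.24 ± 1.83 and the rest at 0.557 to 2.03. As a share of the summed level per kb, Robo1 made up 36.9% to 38.4% at E16 and 2.66% to 12.3% in the adult samples. Robo4 went from 0.0607% to 0.239% of the sum at E16 to 34.0% to 59.8% in the adult samples.

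**Figure D4:**
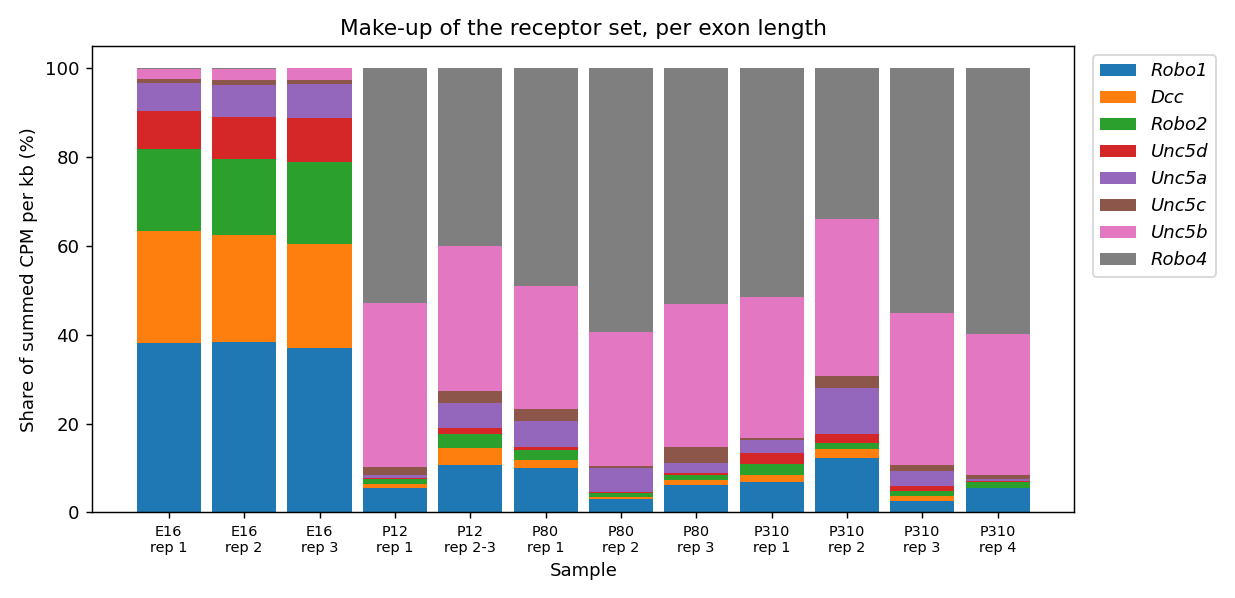
Share of each receptor (colours) in the summed CPM per kb of exon of the 8 receptors (y axis, percent) in every sample (x axis). Robo1, Dcc and Robo2 fill most of the E16 bars, and Robo4 and Unc5b most of every later bar.

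The ligands changed in both directions as well. Of 13 ligands measured (the list's Ntn3 had no row under that symbol), 2 rose and 3 fell from E16 to P12, and 3 rose and 5 fell from E16 to P80, with medians of -0.74 and -0.99. Of all genes, 16.7% rose and 10.5% fell in the former comparison and 21.5% and 19.2% in the latter. At P12 limma-voom called 4 ligands higher and 7 lower, and DESeq2 2 and 4. These tools also called more of all 21170 genes than edgeR did. In that comparison limma-voom called 4523 genes higher and 3819 lower, DESeq2 4020 and 3072, and edgeR 3543 and 2222. Ntn1, the secreted ligand of Dcc and the Unc5 receptors, had 17.4, 23.7 and 16.2 CPM at E16 and 69.4 and 84.7 at P12. It had 129, 76.0 and 94.0 CPM at P80 and 75.5, 123, 195 and 138 CPM at P310, all above E16. Its log2 change was 2.01 ± 0.34 at P12 (adjusted p = 3.95e-04) and 2.38 ± 0.32 at P80 (adjusted p = 3.31e-05) against E16. Ntn4, a netrin of vascular basement membranes, changed by 0.93 ± 0.27 at P12 (adjusted p = 0.0198) and 1.78 ± 0.25 at P80 against E16 (adjusted p = 5.63e-05).

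Draxin, a secreted repellent that binds Dcc, had the most negative fitted change of the 13 ligands. It had 258, 191 and 206 CPM at E16, 10.9 and 9.05 at P12, and 0.110 to 6.03 in the adult samples. Its log2 change at P12 was -4.45 ± 1.23 (adjusted p = 0.0225). Flrt3, a transmembrane partner of Robo1 and Unc5 receptors, changed by -3.33 ± 0.52 (adjusted p = 2.06e-04) and Flrt1 by -1.85 ± 0.45 (adjusted p = 0.00679).

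Among the Slits, Slit1 had 79.0, 77.8 and 55.4 CPM at E16 and 3.86 and 26.2 at P12 (log2 change -2.22 ± 1.31, adjusted p = 0.247). Slit2 stood at 48.3 to 61.3 CPM at E16 and 45.9 and 47.8 at P12 (-0.25 ± 0.43, adjusted p = 0.714). Slit3 stood at 11.3 to 12.6 CPM at E16 and 20.4 and 36.6 at P12 (1.24 ± 0.49, adjusted p = 0.0736). In edgeR no Slit passed the test at P12, and Slit3 passed it at P80 against E16, with 1.45 ± 0.45 (adjusted p = 0.0186), where Slit1 (-2.66 ± 1.15) had an adjusted p of 0.0922. The tools differed here: limma-voom called Slit1 lower (-2.31, adjusted p = 0.0443) and Slit3 higher (1.29, adjusted p = 0.0247) at P12 already. At P80 against E16 Slit1 was called lower by DESeq2 (-2.64, adjusted p = 0.0391) and limma-voom (-3.18, adjusted p = 0.00665).

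**Figure D5:**
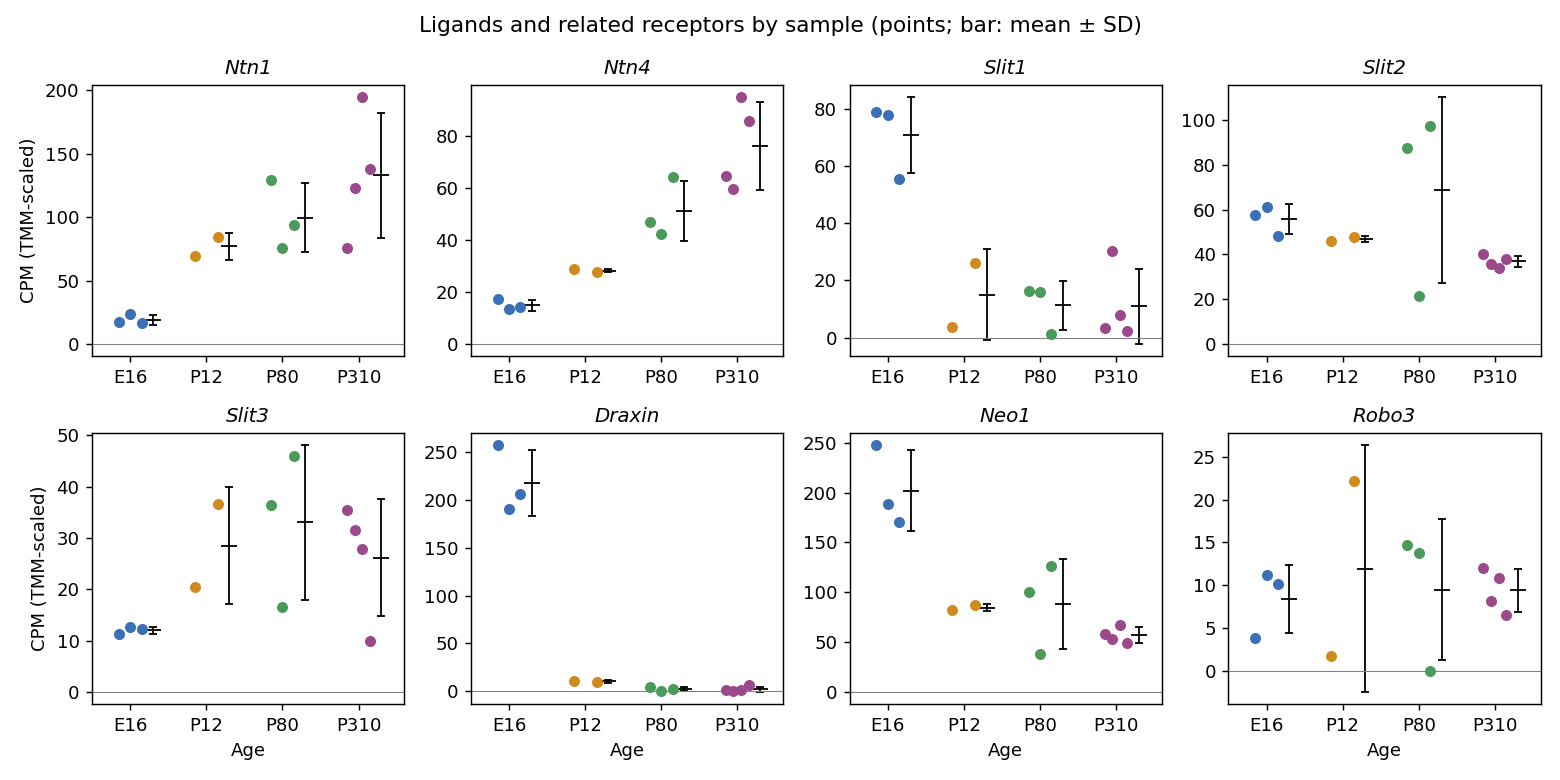
TMM-scaled CPM (y axis, linear) in every sample (points), by age (x axis), of 6 ligands and of the related receptors Neo1 and Robo3, with the mean and SD of each age beside the points. Ntn1 and Ntn4 are lowest at E16, Draxin, Slit1 and Neo1 are highest there, and Robo3 overlaps at all ages.

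Of 6 related receptors and co-receptors 1 rose and 2 fell at P12 against E16, and 1 rose and 3 fell at P80 against E16, beside the same shares of all genes. Neo1, the Dcc relative neogenin that binds netrins and repulsive guidance molecules, went from 202 ± 40.5 CPM (n = 3) to 84.7 ± 3.06 (n = 2), with a fitted log2 change of -1.25 ± 0.38 (adjusted p = 0.0229). It fell less in the fit than Dcc, a difference that was not tested. Gpc1, a heparan sulfate proteoglycan that binds Slits, changed by -1.89 ± 0.32 (adjusted p = 4.35e-04). Dag1 (dystroglycan), which binds Slits too, rose by 1.32 ± 0.24 (adjusted p = 7.62e-04). Robo3, the divergent Robo of commissural axons, had 3.81, 11.2 and 10.1 CPM at E16 and 1.74 and 22.1 at P12 (0.52 ± 1.32, adjusted p = 0.815). It had no count in P80 replicate 3, and 6.54 to 14.7 CPM in the other adult samples.

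Of 30 cytoplasmic effectors 5 rose and 10 fell at P12 against E16, and 5 rose and 16 fell at P80 against E16, with medians of -0.64 and -0.62. The shares of all genes that rose and fell were 16.7% and 10.5% at P12 and 21.5% and 19.2% at P80, so the share of effectors that rose was not above that of all genes. Ablim1, an actin-binding protein that acts in netrin guidance in worms, rose by 3.31 ± 0.26 (adjusted p = 2.45e-07), from 40.9 ± 4.78 CPM to 407 ± 133. Dock1, a Rac activator that acts downstream of Dcc, rose by 1.73 ± 0.20 (adjusted p = 9.73e-06). Enah, an actin regulator of growth cones, changed by -1.74 ± 0.25 (adjusted p = 9.03e-05), from 361 ± 44.0 to 108 ± 18.0 CPM. Trim67, a ubiquitin ligase that binds Dcc, changed by -3.86 ± 0.54 (adjusted p = 7.98e-05), from 124 ± 14.2 to 8.43 ± 5.68 CPM. Of these 49 ligands, related receptors and effectors, edgeR called 0 at P80 against P12 and 0 at P310 against P80, with 11 and 5 at an unadjusted p under 0.05, beside the 9.75% and 5.49% of all genes given above. DESeq2 also called 0 in both. limma-voom called 0 at P310 against P80 and 1 at P80 against P12, the ubiquitin ligase Trim9 (-1.31, adjusted p = 0.0403), named after its value was seen. Of all 21170 genes, limma-voom called 163 higher and 327 lower at P80 against P12.

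By the correlation of log CPM over all 12 samples, the coding genes most like Dcc included Mdga1 (r = 0.967) and Fxyd6 (0.959). Those of Robo1 were Tenm3 (0.989), 9330159F19Rik (0.985) and Celf2 (0.976), and those of Robo2 were Csnk1e (0.987), Tfap2d (0.986) and Tiam2 (0.985). Unc5d was most like Ccdc177 (0.990), Ttc9b (0.978) and Neurod2 (0.978), the last a neuronal transcription factor of the immature neuron list. Unc5a was most like Pianp (0.975), B4galnt4 (0.967) and Atp8a2 (0.966), and for these the r over the 9 postnatal samples was 0.981, 0.943 and 0.980. Unc5c was most like Stk35 (0.937), Cpxm1 (0.906) and Zfp641 (0.874). For Dcc, Robo1, Robo2 and Unc5d the gap between E16 and the later samples adds to r, which was lower without E16 for each gene named. It then ran from 0.657 (Tiam2) to 0.776 (Csnk1e) for Robo2. For Dcc, Robo1 and Unc5d it ran from 0.831 (Robo1 with Celf2) to 0.961 (Unc5d with Ccdc177).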

How the data were processed

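Raw read counts per gene were deposited by the authors, 1 file per library, counted by featureCounts 1.5.0-p1 over exonic bases grouped by gene, with Ensembl release 92 of GRCm38, per the file headers. That command counted reads mapping to several places and reads overlapping several genes for each gene (at least 10 bases), with no strand option, although the library kit named in the labels is a stranded one. Trim Galore and TopHat2 2.1.1 are named in the submitters' processing notes. All 37785 genes were read, and 37715 were named from GENCODE M21.

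The counts of P12 replicates 2 and 3 were summed: their squared difference relative to counting noise was 2.34, over 16120 coding genes with at least 20 counts in the pair, against 16.58 to 179 for the other pairs of equal age. The 12 samples were fitted in edgeR 4.0.16 (R 4.3.3) with filterByExpr, TMM, a mean per age and the robust quasi-likelihood test, Benjamini-Hochberg adjusted over 21170 genes with a threshold of 0.05. Standard errors were taken as the log2 change over the root of F. CPM are TMM-scaled, and CPM per kb were divided by the deposited exonic length. Log values for correlations used a prior count of 2. The fit was checked on simulated data.

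The members and gene lists were chosen with earlier results of these data known. All 8 receptors are named in every comparison, with up to 4 called genes per pathway list by adjusted p, Ntn1, Slit1, Slit2, Slit3, Robo3 and Neo1 always, and the 3 coding genes most correlated with each receptor, of which 1 is not reported here. Genes named besides these were chosen after their values were seen. Alternatives used DESeq2 1.42.0, limma 3.58.1, other size factors, filters and samples. Replicate numbers were not taken as pairs. Deviations correlated above 0.1 in 3 of 18 same-numbered pairs of libraries and in 7 of 45 pairs with different numbers. Figures were drawn with matplotlib 3.10.9.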

Additional observations from a re-analysis of the deposited data

How the results depend on the processing

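Each of the 32 receptor changes was refitted under 22 alternatives, giving 704 values: 654 kept direction and side of the threshold, 36 changed sign, 11 became called and 3 lost the call. Robo1, Robo2, Robo4, Unc5b and Unc5d were called in 22 of 22 at P12 and at P80 against E16, and Dcc in 19 and 22. With no low-count filter 1 receptor was called lower at P80 against P12 (Dcc, -1.27, adjusted p = 0.0132) and 1 higher at P310 against P80 (Unc5d, 1.65, adjusted p = 0.00169). Of all 29980 genes in that setting, 259 were called higher and 618 lower at P80 against P12. There were 298 called higher and 125 lower at P310 against P80, where the main fit called 0. The cause of these calls was not tested. Unc5a at P12 against E16 was called with no filter (-2.18), DESeq2 (-2.24), limma-voom (-2.19) and the replicate block (-2.03).

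Changes of sign came only in values that did not pass the test. At P80 against E16 Unc5c was 0.10 with upper-quartile scaling, 0.01 with at least 1 CPM in 3 samples, 0.07 with only these ages, 0.01 with the replicate block and 0.02 without mitochondrial, ribosomal and haemoglobin genes. At P310 against P80 limma-voom gave -1.96 for Dcc, -0.73 for Robo1, -0.25 for Robo2 and 0.12 for Robo4, and the replicate block gave 0.12 for Unc5a. Leaving out 1 sample at a time, Unc5c ranged from -0.03 to 0.35 at P12 and from -0.36 to 0.45 at P80 against E16. At P80 against P12 the ranges were -1.17 to 0.24 for Robo2, -0.22 to 0.35 for Robo4, -0.41 to 2.47 for Unc5a, -0.55 to 0.28 for Unc5c and -1.57 to 0.39 for Unc5d. At P310 against P80 they were -0.27 to 0.60 for Dcc, -0.33 to 0.59 for Robo1, -0.14 to 0.54 for Robo2, -0.16 to 0.08 for Robo4 and -0.99 to 0.29 for Unc5a. The causes were not tested.

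Upper-quartile scaling moved the median of all genes at P80 against E16 from 0.116 to 0.240. Over all genes at P12 against E16, edgeR called 3543 higher and 2222 lower, DESeq2 4020 and 3072, and limma-voom 4523 and 3819. Replicate numbers showed no sign of pairing the samples. Deviations of 18 same-numbered pairs correlated at -0.234 to 0.21, and those of 45 pairs with different numbers at -0.223 to 0.245. Of 13 libraries 4 correlated best with their own number. With the replicate block 2 receptors were called higher and 5 lower at P12 and at P80 against E16, and 0 in the other comparisons. Of all 20391 genes in that fit, 4131 were called higher and 3172 lower at P12 against E16. At P80 against E16 these were 4556 and 4239.

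The size of the Robo4 change rests on 5 to 22 counts per E16 library.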

Other observations

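The receptor genes differ in length by the deposited annotation, and RefSeq also has promoters of Robo2 further upstream. Dcc (1092.3 kb), Unc5d (572.9 kb), Robo2 (519.5 kb) and Robo1 (382.9 kb), all lower after E16, span over 300 kb, while Robo4 (13.2 kb) and Unc5b (69.0 kb), both higher, are short. Unc5a (56.6 kb), with fitted changes of -2.19 and -1.80, and Unc5c (369.7 kb), with 0.17 and -0.01, did not pass edgeR's test, and neither follows that order. Of 542 tested coding genes of at least 300 kb, 18.3% were called higher and 14.0% lower at P12 against E16. Of all 16514 coding genes tested, 19.2% and 12.6% were. At P80 against E16 the shares were 21.8% and 24.5%, beside 23.3% and 22.5%.

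The P12 samples differed in several receptors at once. Replicate 2-3 exceeded replicate 1 in Dcc (15.3 and 4.17 CPM), Unc5a (11.9 and 1.62), Unc5d (6.30 and 1.62), Robo1 (40.5 and 23.3) and Robo2 (25.1 and 9.45), and lay below it in Unc5b (102 and 128) and Robo4 (106 and 157). In the same order, the mature neuron sum was 283 and 37.9 CPM, the oligodendrocyte sum 428 and 8235, the endothelial sum 4538 and 5779, and the immature neuron sum 391 and 410.1. The part of these cells in the differences was not tested.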
